A study of Drosophila melanogaster with 3 samples.

Results

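CG9609-GFP binding was examined at 9 genes of the epidermal growth factor receptor (EGFR) and Ras signalling pathway of Drosophila melanogaster, Egfr, Shc, drk, Sos, Ras85D, ksr, Dsor1, rl and csw, out of 13968 protein-coding genes in the annotation. The genes were chosen by symbol as core pathway components, without Raf. Chromatin immunoprecipitation followed by sequencing (ChIP-seq), which maps where a protein sits on chromatin, had been carried out on whole embryos of mixed sex aged 0 to 24 h from 1 transgenic line. That line carries the CG9609 protein with eGFP fused to its C-terminal end, so that an anti-GFP antibody, and not one against CG9609 itself, recovered the bound DNA. The 3 biological replicates form 1 group with the same genotype, stage and antibody, so no condition could be compared, and whole embryos mix all cell types.

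The pathway carries a growth factor signal from the cell surface to the nucleus. Binding of a ligand activates the receptor Egfr, the adaptors drk and Shc bring the exchange factor Sos to the membrane, and Sos loads the small GTPase Ras85D with GTP. Ras85D then starts a kinase cascade of Raf, the MEK kinase Dsor1 and the ERK kinase rl, assembled on the scaffold ksr, while the tyrosine phosphatase csw acts as a positive component downstream of the receptors. In the embryo this cascade is known for its part in patterning the ventral ectoderm, the tracheal system and the termini.

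The promoter sequences of Shc, Ras85D and csw are shown because these were the 3 of 9 genes with a reproducible CG9609-GFP peak at the promoter. Each sequence runs 5′ to 3′ on the strand of its gene in dm6, from 250 bases before the transcription start site (TSS) to 50 bases from the TSS onward, with the TSS as the first of those 50. Capitals mark any match to 1 of 10 words of 8 bases that were the most enriched under the other CG9609-GFP summits against flanking windows. The words, searched on both strands, were ATCGATAG, TATCGATA, CAACACTG, AACTATCG, ACTATCGA, GCTATCGA, TTTAAAAA, ATCGATAA, ATATCGAT and GATGGCGC, and those that hold the letters ATCG overlap one another. The bases are those of the RefSeq genome. The summit, the position of highest signal given by the authors, lies at base 140 for Shc, base 98 for Ras85D and base 190 for csw.
Shc, chr3L:9426760-9427059, plus strand: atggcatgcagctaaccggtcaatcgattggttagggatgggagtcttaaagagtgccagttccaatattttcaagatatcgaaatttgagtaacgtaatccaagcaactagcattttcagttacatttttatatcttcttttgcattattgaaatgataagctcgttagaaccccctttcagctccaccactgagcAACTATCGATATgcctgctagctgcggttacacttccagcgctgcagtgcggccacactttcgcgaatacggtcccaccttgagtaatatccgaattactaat
Ras85D, chr3R:9513018-9513317, minus strand: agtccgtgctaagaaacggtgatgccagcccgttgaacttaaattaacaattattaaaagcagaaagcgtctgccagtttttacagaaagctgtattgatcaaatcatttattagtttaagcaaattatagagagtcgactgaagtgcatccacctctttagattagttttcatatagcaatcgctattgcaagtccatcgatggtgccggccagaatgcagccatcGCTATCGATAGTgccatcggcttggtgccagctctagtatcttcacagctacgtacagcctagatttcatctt
csw, chrX:2093984-2094283, plus strand, its most upstream TSS: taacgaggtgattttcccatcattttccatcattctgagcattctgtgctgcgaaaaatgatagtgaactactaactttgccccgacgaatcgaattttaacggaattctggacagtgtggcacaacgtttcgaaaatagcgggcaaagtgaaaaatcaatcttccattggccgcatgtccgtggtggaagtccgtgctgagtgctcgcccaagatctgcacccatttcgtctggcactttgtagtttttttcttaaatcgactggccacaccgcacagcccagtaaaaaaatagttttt

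The Shc and Ras85D promoters both held the word TATCGATA, known as the DNA replication-related element, which the factor DREF recognises. They also shared the overlapping words ATCGATAG and ACTATCGA. In Shc the run of overlapping words filled bases 198 to 209, from 53 to 42 bp upstream of the TSS and beginning 58 bp downstream of the summit. In Ras85D it filled bases 228 to 239, from 23 to 12 bp upstream of the TSS and beginning 130 bp downstream of the summit. TATCGATA was found in 8.94% of 13967 promoters of the same 300 bases (canonical TSS, both strands) and in 14.9% of the 2623 of them whose gene had a reproducible peak within 500 bp of any of its TSSs. The csw promoter shown held none of the 10 words, a description of these letters only. Member promoters without a reproducible peak also held words of the list, though not TATCGATA, and a link between words and binding was not tested. TTTAAAAA lay in the same window at ksr, at the first TSSs of drk and Dsor1, and at the rl TSSs. CAACACTG lay at the first TSSs of drk and rl, and the other csw TSSs held TTTAAAAA or GATGGCGC. Closer to the summits, none of the 10 words lay in the 101 bp centred on any of the member peaks, introns included. At least 1 of the words lay in that window in 15.7% of all 3747 reproducible peaks and in 4.35% of windows centred 300 bp to one side. In the 101 bp upstream of the canonical TSS the share was 18.1% of 13967 promoters, higher than under the peaks. Of promoters of 300 bases, 32.4% held at least 1 of the words.

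Regions were ranked within each list by the authors' signal value, with rank 1 the strongest. The reproducible set of 3747 peaks, which the authors derived by the irreproducible discovery rate, is identical to the 3747 strongest regions of the list called on the pooled replicates, with the same rank for each peak. A gene was counted as bound at its promoter when a summit lay within 500 bp of the TSS of any of its protein-coding transcripts. By this rule Shc, Ras85D and csw were bound (3 of 9, 33.3%), against 18.8% of all 13968 genes, and the difference was not tested, since the genes had been chosen with earlier results known. The same 3 genes were bound in the 3747 strongest regions of replicate 1 (16.8% of all genes) and of replicate 2 (18.7%). In replicate 3 (18.5%) drk was added as the 4th, at rank 3690.

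**Figure D1:**
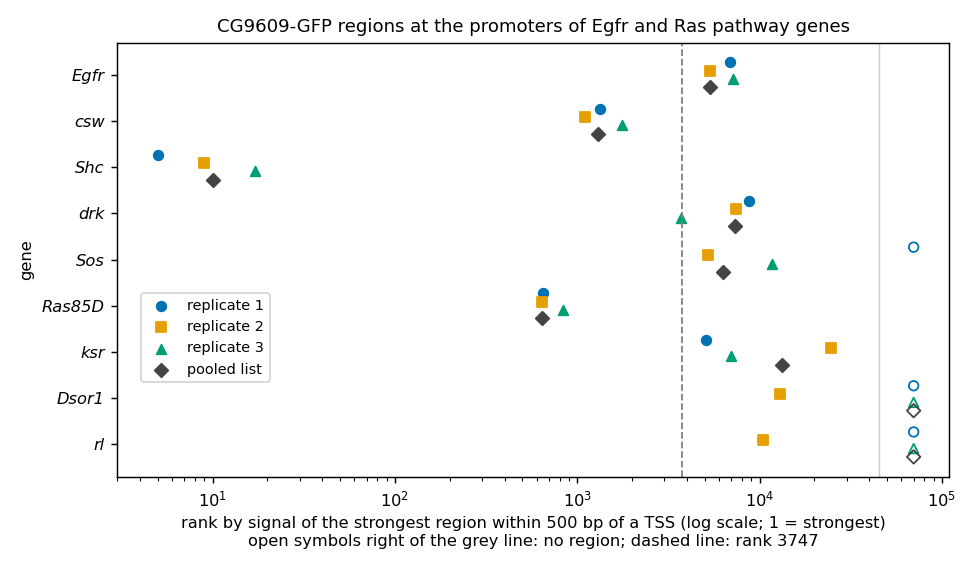
Rank of the strongest region within 500 bp of a TSS of each gene (x axis, log scale, 1 is the strongest) in the 3 replicate lists and the pooled list, with open symbols at the right where a list has no region and a dashed line at rank 3747. Shc, Ras85D and csw lie left of the line in all 4 lists, and the other 6 genes lie right of it except drk in replicate 3.

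Shc, an adaptor that binds phosphorylated receptors, had by far the strongest member peak. Its signal was 521, 520 and 549 in replicates 1, 2 and 3, at ranks 5, 9 and 17 (mean rank 10.3 ± 6.11, SD, n = 3). All replicates placed it among their strongest few regions, at rank 10 of 3747 in the reproducible set with a signal of 1588. The peak, on 3L from 9426701 to 9427080, lies upstream of the single TSS of Shc (FBgn0015296), with the summit 111 bp upstream in the reproducible set and 124, 107 and 113 bp upstream in replicates 1, 2 and 3. It is shared with Atat, an alpha-tubulin acetyltransferase gene on the opposite strand, whose nearest TSS is 141 bp from the summit and 252 bp from that of Shc.

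Ras85D, the Ras GTPase at the centre of the cascade, had a signal of 70.4, 83.2 and 96.4 in replicates 1, 2 and 3. The corresponding ranks were 648, 643 and 835 (709 ± 109, SD, n = 3), and the ratio of the highest to the lowest was 1.30, where the median over reproducible peaks found in all replicate lists was 2.02. The replicates thus placed it within a narrow band of ranks. In the reproducible set it had rank 640 and a signal of 262, on 3R from 9513025 to 9513414, with the summit 153 bp upstream of the only TSS of Ras85D (FBgn0003205). The replicate summits were 158, 153 and 155 bp upstream. The peak also lies at the promoter of Rlb1, a gene on the opposite strand, whose TSS is closer to the summit, at 107 bp, and 260 bp from that of Ras85D.

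The phosphatase gene csw (FBgn0000382), which has 3 TSSs, had its peak at the most upstream of them. The signal was 48.1, 62.4 and 64.6 in replicates 1, 2 and 3, at ranks 1340, 1110 and 1759 (1403 ± 329, SD, n = 3). All 3 replicates held it well within their strongest 3747 regions. In the reproducible set the peak had rank 1299 and a signal of 177, on X from 2093978 to 2094367, and the summit was 61 bp upstream of the TSS. Replicate summits lay 103, 61 and 31 bp upstream, a wider scatter than at Shc or Ras85D. No other protein-coding TSS lay within 500 bp, so csw was the only gene of the 3 without an opposite-strand partner there. The TSS of the canonical csw transcript lies further downstream, and near it the replicate lists held only weak regions, at ranks 27905, 26438 and 24385 in replicates 1, 2 and 3. At the most downstream TSS, replicate 2 alone had a region, at rank 5474.

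The adaptor gene drk and the receptor gene Egfr had their reproducible peaks in introns, away from any protein-coding TSS. Of the 8 members with an intron, these 2 (25.0%) had an intronic summit, against 6.16% of 11690 genes with introns. Long introns offer more room, and the members with introns had a median of 2785.5 bp of intron against 413.5 bp over all genes. Summed over the members, the density was 0.207 summits per 10 kb of intron (2 summits in 96778 bp), against 0.193 over all genes. That sum joins unlike genes, with 2.14 at drk, 0.327 at Egfr and 0.0 at the others. The introns of rl supply 46875 of the 96778 bp. Neither comparison with all genes was tested. With the sets rebuilt from replicates 2 and 3 or from replicates 1 and 3 alone, drk was the 1 member with an intronic summit.

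The drk peak ranked close to that of Ras85D, slightly above it in the reproducible set. Its signal was 77.2, 83.0 and 104 in replicates 1, 2 and 3, at ranks 546, 651 and 727 (641 ± 90.9, SD, n = 3). The replicate summits lay within 27 bp of the reproducible one, so that the lists agree on its place. It is the peak of rank 594 with a signal of 269, on 2R from 13499676 to 13499839, in an intron of 3923 bp that all 5 protein-coding transcripts of drk (FBgn0004638) share, and 2537 bp downstream of the nearest drk TSS. The nearest TSS of any gene is 865 bp away and belongs to mars, a mitotic spindle gene on the opposite strand, 1 of whose 3 TSSs lies inside that intron. At the promoters of drk itself, where another mars TSS lies 88 bp from the first drk TSS, the regions were weaker. The best ones had ranks 8802, 7395 and 3690 in replicates 1, 2 and 3 and 7362 in the pooled list.

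The Egfr peak was the weakest and least repeatable of the members. It had rank 3508 and a signal of 94.7 in the reproducible set, on 2R from 21535439 to 21535828, in the first intron of the transcript Egfr-RA. The summit lies between the TSSs of Egfr (FBgn0003731), 13214 bp downstream of the first and 11009 bp upstream of the second, and 1161 bp from the start of CG30286, a gene on the opposite strand. The signal within the replicates was 12.9, 45.3 and 38.8, at ranks 29245, 1920 and 3901 in lists of 30000, 29898 and 30000 regions. Replicate 1 therefore held it near the end of its list, replicate 2 within the strongest 3747 and replicate 3 just below them. The neighbours in the reproducible set, rank 3507 at CG4678 and rank 3509 in an intron of SNF4Agamma, had the same signal of 94.7 to 3 digits. A second Egfr region in that intron, about 5 kb from the upstream TSS, stood just outside the set at rank 4007 of the pooled list, with a signal of 86.0. Its ranks were 3538, 2575 and 16115 in replicates 1, 2 and 3, so here replicate 3 was the low one, and no Egfr intronic region was among the strongest 3747 of that replicate. At the Egfr promoter all replicates had a region 183, 145 and 159 bp upstream of the first TSS, but only at ranks 6881, 5322 and 7149, and at 5359 with a signal of 69.9 in the pooled list.

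**Figure D2:**
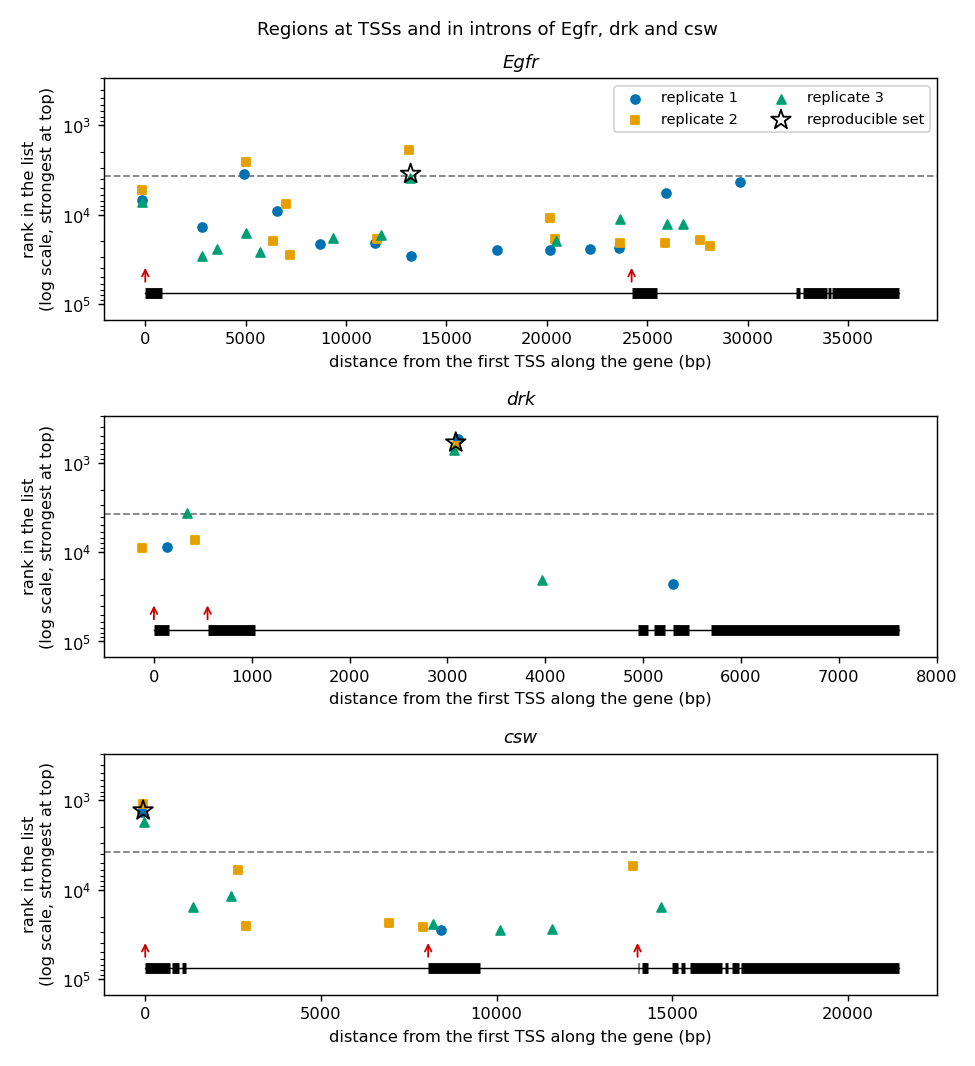
Regions at TSSs and in introns of Egfr, drk and csw, by distance from the most upstream TSS along the gene (x axis, bp) and rank in the list (y axis, log scale, strongest at the top), with exons as black bars, TSSs as red arrows, the reproducible peaks as stars and a dashed line at rank 3747. At drk and csw the 3 replicates fall together at the star, whereas at the Egfr star only replicate 2 lies above the line.

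Ordered by rank over the replicates, the member peaks ran Shc, drk, Ras85D, csw and Egfr. The ranges of drk (546 to 727) and Ras85D (643 to 835) overlapped, so these neighbours did not differ beyond the replicate spread. The ranges of the other neighbouring pairs did not overlap, although the SD of the Egfr rank, 15200 around a mean of 11689, was larger than the mean itself. The peaks of Shc, drk, Ras85D and csw (4 of 5) ranked within the strongest 3747 in each replicate, as did 55.4% of all reproducible peaks.

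**Figure D3:**
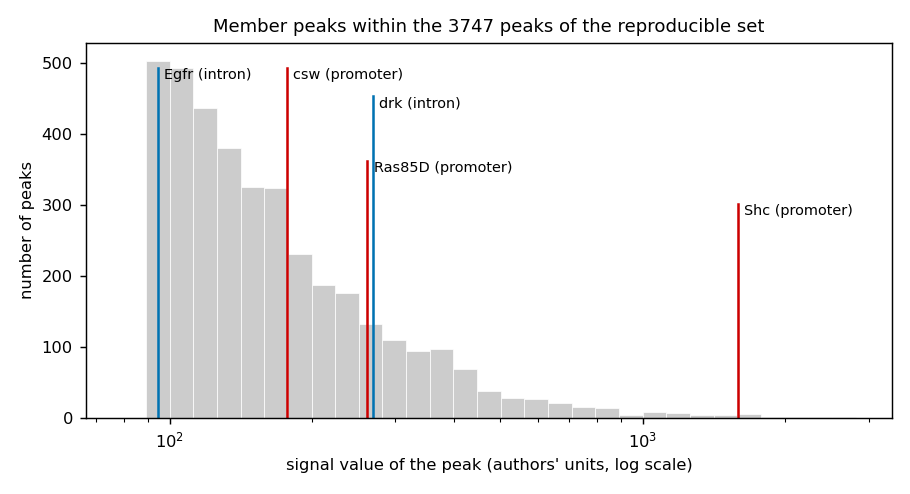
Number of peaks (y axis) by signal value in the authors' units (x axis, log scale) for the 3747 peaks of the reproducible set, with member promoter peaks as red lines and member intronic peaks as blue lines. Shc, at 1588, stands in the thin upper tail, drk (269), Ras85D (262) and csw (177) lie above the median of 144, and Egfr (94.7) lies near the lower end of 90.0.

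The remaining members, Sos, ksr, Dsor1 and rl, had no reproducible peak at a promoter or in an intron. Weak regions were still listed at some of their promoters, as they were for many genes. Regions within 500 bp of a TSS were present for 44.5%, 49.6% and 53.7% of all genes in the whole lists of replicates 1, 2 and 3 and for 51.5% in the pooled list. For the 9 members these counts were 6, 9, 7 and 7.

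Sos, the exchange factor that loads Ras85D with GTP, had no promoter region in replicate 1. In replicates 2 and 3 its regions had signals of 24.1 and 19.6, at ranks 5217 and 11703. They lay within 5 and 29 bp of the TSS, at the same place as a region of rank 6315 in the pooled list. Both signals are below those of the strongest 3747 regions, and the nearest reproducible summit was 19294 bp away, 5 bp from a TSS of GatC.

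The scaffold gene ksr had its best promoter regions at ranks 5062, 24772 and 6973 in replicates 1, 2 and 3, with signals of 24.6, 11.6 and 26.6. The replicates did not place them together, since the replicate 1 summit was 433 bp downstream of the TSS and those of replicates 2 and 3 were 21 and 28 bp upstream. A reproducible peak of rank 2157 lay 1632 bp from the ksr TSS, outside the window and 5 bp from the TSS of CG31550.

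The kinase genes Dsor1 and rl had promoter regions in the fewest lists. Dsor1, the MEK of the pathway, had a single promoter region, in replicate 2 at rank 12943 with a signal of 15.7, and none in the other replicates or the pooled list. Replicate 3 listed 1 region in an intron of Dsor1, at rank 8610. For rl, the ERK of the pathway, the only promoter region was also in replicate 2, at rank 10394 with a signal of 17.2. Replicate 1 listed 2 regions in rl introns, the better at rank 6691, replicate 2 listed 3, the best at rank 8937, and replicate 3 and the pooled list had none. The 46875 bp of rl introns, the longest of the members, therefore held no reproducible summit. Regions were scarce in that whole stretch of 2R. The 200 kb centred on rl held 7, 13 and 0 regions in replicates 1, 2 and 3, or 3.5, 6.5 and 0 per 100 kb, against 23.2, 22.7 and 22.3 per 100 kb over 2R. The gene is known to lie in the pericentric heterochromatin of that arm, and the part of this scarcity in the result for rl was not tested.

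Raf, the kinase between Ras85D and Dsor1, also lacked a reproducible promoter peak but had 9 reproducible summits in its introns, the strongest at rank 48.

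For each promoter-bound member, the gene with the closest promoter ranks was sought among 4336 genes with a region in all 3 replicate lists. Closeness was the smallest sum of absolute log10 rank differences over the replicates. Genes sharing a member's peak, Atat for Shc and Rlb1 for Ras85D, have that same region at their promoters and are not the genes named here. The closest other gene was CG1888 for Shc, with ranks 7, 11 and 9 in replicates 1, 2 and 3 and a sum of 0.509. For Ras85D it was Karybeta3, with ranks 622, 697 and 836 and a sum of 0.053. For csw it was Vps60, with ranks 1337, 1223 and 1783 and a sum of 0.049. The sum was largest for Shc, where a single step in rank changes the log10 value most, so the sums do not compare between genes.

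A wider list of 48 genes covered ligands, their processing factors, inhibitors, other adaptors, nuclear effectors and related receptor tyrosine kinases. Of these, 13 (27.1%) had a reproducible promoter summit, against the 18.8% of all genes, and the mean share over the strongest regions of the replicates was 28.5% ± 3.16 (SD, n = 3). Among pooled regions matched within the strongest 3747 of replicates 1 and 3, the count was 7 of 48, against 13% of all genes. Among the ligands, spi, the main activating ligand of Egfr, had 3 promoter summits, the strongest at rank 111, 177 bp upstream, with ranks 156, 109 and 101 in replicates 1, 2 and 3. Krn, another activating ligand, had a summit at rank 729, shared with CG7484 and Ndfip. The corepressor gene gro had 2 promoter summits, at ranks 98 and 888, and the strongest of them had ranks 76, 75 and 146 in the replicates. For these 3 genes the leading peak ranked within the strongest 3747 in every replicate.

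Regulators of the kinase cascade made up several of the other promoter-bound genes. The 14-3-3 adaptor gene 14-3-3zeta had a summit at rank 1027, shared with RpLP0-like, whose replicate ranks of 330, 4630 and 1223 were far apart, and another at rank 2554. The gene mts, the catalytic subunit of protein phosphatase 2A, had rank 1315, shared with Rack1, and was among the strongest regions in each replicate. The scaffold gene Sur-8 had summits at ranks 1835 and 1930, the first of which was at rank 25362 in replicate 1. The gene ave, which acts with the scaffold cnk, had rank 2034, shared with Rpn6. Further promoter peaks lay at aop, the ETS repressor also called yan (rank 1913), Rap1, a Ras-related GTPase (rank 2647), Star, written S in the annotation, which moves ligands to the site of cleavage (rank 2731, shared with ast), aos, the secreted inhibitor of Egfr (rank 2814), dos, an adaptor for csw (rank 2885), and Mkp3, the phosphatase of rl (rank 3014). Of these last 6 peaks, that of aop was the 1 found in the strongest 3747 of every replicate.

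In contrast with promoters, introns were occupied in 16 of the 45 wider-list genes that have any (35.6%), against the 6.16% of all genes. These genes have a median of 6374 bp of intron. Per length they held 0.557 summits per 10 kb (32 summits in 574113 bp), against 0.193 over all genes and 0.171 over the 1384 genes with more than 10 kb of intron. Of the 19 wider-list genes with more than 10 kb, 15 had an intronic summit, against 32.2% of all such genes. Among the strongest regions of replicates 1, 2 and 3 the count was 15, 14 and 19 genes. The share of all genes with an intronic summit was not counted in those lists, so these counts cannot be set against it. The list was written with earlier results of these data known, and none of these differences was tested.

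The strongest intronic peaks of the wider list lay at S, aos and aop. S had 4, the strongest at rank 163 with replicate ranks of 191, 126 and 218. The inhibitor gene aos had 1 at rank 166, with replicate ranks of 303, 161 and 128, and aop had 3, the best at rank 232 (290, 180 and 305 in the replicates). These ranks are all stronger than any member peak except that of Shc. Of the genes with intronic summits but none at a promoter, the 5 strongest were ths, an FGF ligand (rank 563), ed, a cell adhesion protein that restrains Egfr signalling (582), vn, a neuregulin-like Egfr ligand (702), edl, a regulator of ETS factors (721), and pnt, the ETS activator downstream of rl (759). Each of these 5 peaks ranked within the strongest 3747 in replicates 1, 2 and 3.

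**Figure D4:**
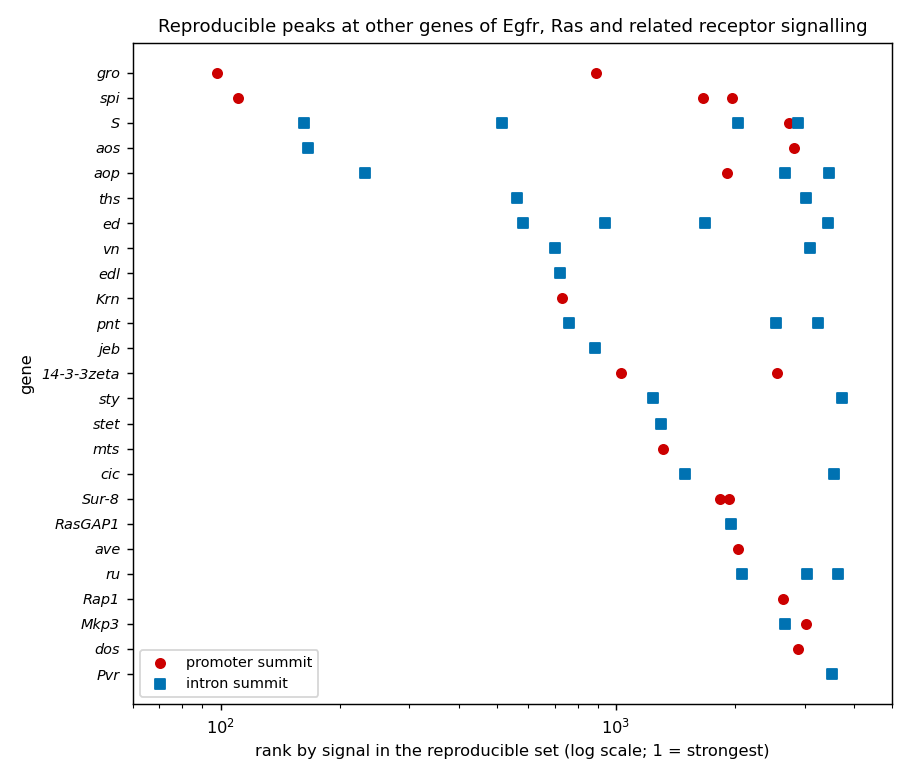
Rank in the reproducible set (x axis, log scale, 1 is the strongest) of every promoter summit (red circles) and intronic summit (blue squares) at the wider-list genes that have any, 1 gene per line. The promoter summits of gro (rank 98) and spi (rank 111) and the intronic summits of S (163), aos (166) and aop (232) lead.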

How the data were processed

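The deposited dm6 peak lists, in narrowPeak layout, were used: 1 list per replicate (30000, 29898 and 30000 regions of peaks and background), 1 list of 29054 regions called by the authors on the pooled replicates, and their thresholded set of 3747. The signal value of each region is the authors' own, as deposited. What it scales with, how regions were called, how reads were aligned and how many there were is not given in the sources used here, so lists were compared by rank only, and the precision of ranks comes from the 3 replicates. Sonicated fragments were 200 to 800 bp, per the labels. The labels name a possible control experiment, and how it entered the lists is not given there. The dm3 lists were not used.

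Summits were the region start plus the deposited offset, counted from 1. TSSs, exons and introns of protein-coding transcripts came from Ensembl release 115 (BDGP 6.54) and sequence from the RefSeq genome of the same assembly, and all regions ended within its chromosomes. A summit counted as intronic when it lay in an intron, in no exon of that gene and over 500 bp from every protein-coding TSS. Replicate regions were matched to a peak when summits lay within 100 bp. Words of 8 bases were chosen on the 3742 non-member peaks by presence within 50 bp of the summit against windows 300 bp away. All 48 listed genes were matched, 1 of them (Gap1, now RasGAP1) by an older symbol.

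Named genes were all members, genes sharing their peaks, all wider-list genes with a promoter summit, the 5 strongest with intronic summits only, the closest genes by rank, and the neighbours of the weakest peak. S, aos and aop were named for intronic peaks after their values were seen. Members and lists were chosen with earlier results of these data known, and no significance test was made. The counting code was checked only on summits placed at known promoters and in an intron. Word selection was checked only on an implanted word, made more frequent than any of the chosen words. These checks do not show that words at the real frequencies would be recovered. Python 3.11.15, numpy 2.4.6, pandas 2.3.3 and matplotlib 3.10.9 were used.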

Additional observations from a re-analysis of the deposited data

How the results depend on the processing

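The 3 promoter-bound members were the same genes in the stronger 1873 peaks of the set, in the consensus (pooled regions matched within the strongest 3747 of every replicate) and with each replicate left out. Their count was 3 with windows of 250 and 1000 bp and with whole regions, and 2 with canonical TSSs only, which leave out the csw peak. Of all genes, 15.3% had a promoter summit with 250 bp, 20.1% with whole regions and 16.7% with canonical TSSs only. The count of members with an intronic summit was 1 with a window of 1000 bp, 1 in the stronger 1873 and 1 in the consensus, and from 1 to 2 with a replicate left out. The drk summit is 865 bp from a TSS of mars, and the Egfr region present without replicate 3 is that of pooled rank 4007, while that of rank 3508 was in none of the sets with a replicate left out. Wider-list genes with a promoter summit numbered 20 with 1000 bp, 6 in the stronger 1873 and 6 in the consensus. With a replicate left out they numbered 7 to 10. Wider-list genes with an intronic summit numbered 12 to 20 over all alternatives, which were added after seeing the data. The share of all genes with an intronic summit was not counted under the alternatives. The share of all genes with a promoter summit was 21.6% with 1000 bp, 13% to 14.1% with a replicate left out, 10.7% in the stronger 1873 and 11.8% in the consensus, the last pair being sets of 1873 and 2075 peaks, which hold fewer regions by construction. In the sets with a replicate left out, regions still came from the list the authors called on the pooled replicates. Only the match to the replicate left out was dropped, so these sets are not independent of it. No paired analysis was possible because the samples form 1 group. The number of reads is unknown, so the lack of a reproducible peak at Sos, ksr, Dsor1 or rl says only that none was in that set.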

Other observations

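Region width set the drk and Shc peaks apart from the other member peaks. In the reproducible set 82.0% of the peaks were exactly 390 bp wide and 17.6% were narrower, and the narrower ones had a median rank of 356.5 against 2204.5 for the rest at 390 bp. The drk peak was 164 bp wide, and in replicate 3 its region was 146 bp wide where 400 bp was the usual width, while replicates 1 and 2 listed it at their usual 364 and 380 bp. Shc was narrower than usual in every list, at 380 bp in the set and 324, 335 and 362 bp in replicates 1, 2 and 3. The Ras85D, csw and Egfr peaks had the usual width in every list.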
